A study of Mus musculus with 16 samples.

Results

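Lag3 and 7 other immune checkpoint genes (Havcr2, Vsir, Cd274, Cd200, Cd200r1, Cd47 and Sirpa) were followed across the brains of mice that differ in Ch25h genotype and tau status. They were matched by symbol and are 8 of the 54532 entries of the count table, and all 8 passed the filter on low counts that left 17736 genes. Lag3 was chosen by its measured values, because its tau effect differed between the Ch25h genotypes, so its values below are a description with no test. The other 7 genes have related roles and were tested, but they too were listed with earlier results of these data known.

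RNA was sequenced in 16 libraries from female mice aged 9 months, 4 libraries for each pairing of Ch25h genotype (Ch25h+/+ or Ch25h-/-) and tau status (Tau- or Tau+). The Ch25h gene encodes cholesterol 25-hydroxylase, which makes the oxysterol 25-hydroxycholesterol, and -/- is read as lacking the gene. Tau+ is read as carrying a tau transgene. The labels used here name neither the transgene, its promoter nor the Ch25h deletion, and they do not say whether the animals of a group were littermates, so p-values measure the spread between these libraries. The sample labels name frontal cortex and the series text names hippocampus. The 5 cortex markers summed to 471 to 608 CPM (counts scaled to a common library size) and the 6 hippocampus markers to 26.0 to 72.0 CPM.

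Checkpoint genes encode surface proteins that restrain immune cells. Lag3 binds MHC class II, Havcr2 (TIM-3) binds galectin-9 and phosphatidylserine, Vsir (VISTA) holds back T cells and myeloid cells, and Cd274 (PD-L1) is the ligand of PD-1. In the brain, Cd200 on neurons signals to Cd200r1 on microglia, and Cd47 signals to Sirpa on phagocytes to limit engulfment.

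The 250 bases upstream of the annotated start are shown for the 3 tested genes that were lower with Ch25h loss in Tau+ mice, from RefSeq promoters of build GRCm38.p6, which held 5 of the 8 genes. Lag3, Cd200r1 and Sirpa were not matched. The windows are chr11:46454681-46454930 for Havcr2, chr10:60346601-60346850 for Vsir and chr19:29367188-29367437 for Cd274, all on the plus strand and printed 5′ to 3′. Capitals mark matches to the motifs named after the sequences.
Havcr2: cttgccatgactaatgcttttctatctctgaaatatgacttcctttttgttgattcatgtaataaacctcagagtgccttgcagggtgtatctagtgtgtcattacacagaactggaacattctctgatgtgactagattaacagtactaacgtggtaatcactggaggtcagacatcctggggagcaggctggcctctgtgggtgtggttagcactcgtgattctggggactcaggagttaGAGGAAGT
Vsir: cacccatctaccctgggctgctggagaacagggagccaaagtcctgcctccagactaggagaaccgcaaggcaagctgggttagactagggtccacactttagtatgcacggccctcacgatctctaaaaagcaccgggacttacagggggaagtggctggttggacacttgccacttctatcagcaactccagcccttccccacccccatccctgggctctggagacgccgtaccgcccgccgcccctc
Cd274: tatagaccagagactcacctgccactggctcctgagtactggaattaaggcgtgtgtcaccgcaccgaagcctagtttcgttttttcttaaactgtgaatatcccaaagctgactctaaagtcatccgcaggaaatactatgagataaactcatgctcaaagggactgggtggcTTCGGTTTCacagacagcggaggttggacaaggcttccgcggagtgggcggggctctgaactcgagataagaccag

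Letters of 3 motifs were searched on both strands of the 250-base window. The core of the PU.1 site, GAGGAAGT, was found in Havcr2 at bases 8 to 1 upstream of the start, and in 2.44% of 32851 promoters. The GAS, TTCNNNGAA, was found in none of the 5 genes and in 7.02% of promoters. The ISRE core in its 10-letter form was also found in none of the 5 genes, and in 2.98% of promoters. A form shorter by its last letter, GAAANNGAA, was searched only after the longer form had given no match. It was found in Cd274 at bases 76 to 68 upstream, on the opposite strand, and in 7.13% of promoters, so the Cd274 match rests on which form is used. A match of letters is not a bound site.

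Totals were 15530352 to 25602500 counts per library. Ch25h had 0 counts in all 8 Ch25h-/- libraries and 5 to 30 counts in each Ch25h+/+ library. Prnp, which served to check the labelled tau status, was 2.14-fold higher in Tau+ in both genotypes (adjusted p 2.43e-06 and 9.37e-06, edgeR quasi-likelihood test, Benjamini-Hochberg). Mapt, the mouse tau gene, was read for the same check and passed in neither genotype. Its log2 fold change with tau was -0.07 in Ch25h+/+ (adjusted p 0.915, edgeR) and 0.09 in Ch25h-/-. The labels used here tie neither gene to the transgene. Libraries also differed in a ribosomal RNA transcript, CT010467.1: it took 2289 to 5684 CPM of total counts in all 4 Ch25h-/- Tau- and 3 of 4 Ch25h-/- Tau+ libraries, and 111 to 475 CPM in the other 9 libraries. Ch25h-/- Tau+ replicate 1 is the single Ch25h-/- library among those 9. This rRNA-rich class goes almost wholly with Ch25h genotype, so its part in Ch25h-loss results cannot be told apart from genotype except through that library.

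Lag3, a receptor that restrains T cells and is also transcribed in microglia, was high in 1 of the 4 groups. Its levels were 29.8, 29.5, 26.2 and 38.6 CPM in the 4 Ch25h+/+ Tau+ libraries, against 11.3, 8.75, 8.59 and 8.62 in Ch25h+/+ Tau-. In Ch25h-/- they were 7.53, 7.35, 8.68 and 6.36 CPM in Tau- and 10.8, 12.6, 8.86 and 8.37 in Tau+. Every Ch25h+/+ Tau+ library lay above every other library, while the 2 Ch25h-/- groups overlapped. In bulk tissue, fewer cells of a type and less RNA per cell cannot be told apart. The means were 9.31 ± 1.31, 31.0 ± 5.30, 7.48 ± 0.951 and 10.2 ± 1.94 CPM (SD, n = 4 each) in the order Ch25h+/+ Tau-, Ch25h+/+ Tau+, Ch25h-/- Tau-, Ch25h-/- Tau+.

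As a description, the tau difference in Lag3 was a log2 fold change of 1.73 (SE 0.15), or 3.33-fold, in Ch25h+/+ and 0.44 (SE 0.15) in Ch25h-/-. The difference between these, by which Lag3 was chosen, was -1.29 (SE 0.21). Ch25h loss went with -1.61 (SE 0.15) in Tau+ and -0.32 (SE 0.15) in Tau-, the latter -0.09 with GC-corrected offsets. The tau difference in Ch25h+/+ and Ch25h loss in Tau+ share the Ch25h+/+ Tau+ libraries, so they are not separate evidence. In the library of Ch25h-/- Tau+ outside the rRNA-rich class, Lag3 stood at 10.8 CPM, below the lowest Ch25h+/+ Tau+ library at 26.2 CPM.

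**Figure D1:**
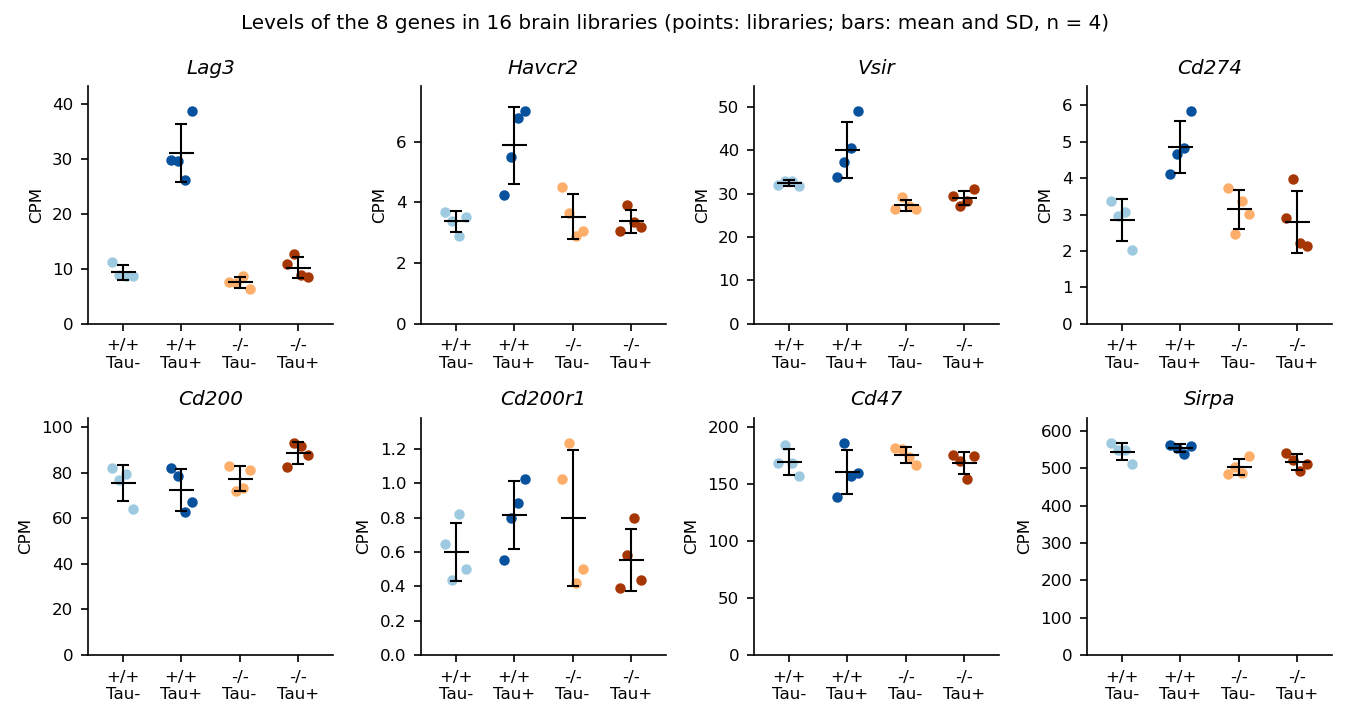
Levels (CPM, vertical axis from 0) of the 8 genes in 16 libraries, by Ch25h genotype (+/+ or -/-) and tau status; points are libraries and bars the mean and SD of 4. Lag3 in Ch25h+/+ Tau+ (26.2 to 38.6 CPM) lies above all other libraries, while Cd47 and Sirpa are spread over narrow ranges.

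Havcr2, a receptor that microglia express, was the 1 of 7 tested genes that rose with tau in Ch25h+/+, where 1.56% of all genes passed. Its levels were 3.70, 3.39, 2.89 and 3.53 CPM in Ch25h+/+ Tau- and 4.25, 5.51, 6.79 and 7.003 in Ch25h+/+ Tau+, with no overlap. The log2 fold change was 0.81 (SE 0.18, adjusted p 0.0247, edgeR quasi-likelihood test, Benjamini-Hochberg over all genes). The call was lost without any one of the 4 Ch25h+/+ Tau- libraries or without Ch25h+/+ Tau+ replicate 3 or 4 (adjusted p 0.0536 to 0.126), and in a fit of the 8 libraries compared (0.0735).

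Cd274 and Vsir were also higher in every Ch25h+/+ Tau+ library than in any Ch25h+/+ Tau- library, without passing the test. Cd274 levels were 3.37, 2.95, 3.06 and 2.02 CPM in Tau- and 4.13, 4.67, 4.83 and 5.84 in Tau+ (log2 fold change 0.77, SE 0.21, adjusted p 0.0893, edgeR). Vsir levels were 31.9, 33.0, 33.0 and 31.7 CPM in Tau- and 33.8, 37.4, 40.5 and 49.0 in Tau+ (0.31, SE 0.09, adjusted p 0.144, edgeR). Cd274 passed with DESeq2 (adjusted p 0.0255), and with limma-voom and sample quality weights both Cd274 (0.0187) and Vsir (0.0124) did. Neither passed in a fit of the 8 libraries compared (adjusted p 0.102 for Cd274 and 0.335 for Vsir, edgeR). Nor did they with a covariate for the rRNA-rich class (0.108 and 0.165) or GC-corrected offsets (0.0819 and 0.183, edgeR). Over fits without 1 library, log2 fold changes ran from 0.64 to 0.87 for Cd274 and 0.20 to 0.39 for Vsir. The median over the 7 genes was 0.31, against -0.01 over all genes.

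In Ch25h-/-, none of the 7 genes passed for the tau effect, where 0.0395% of all genes did. All 7 had overlapping libraries in Tau- and Tau+. Havcr2 was at 4.52, 3.65, 2.89 and 3.07 CPM in Ch25h-/- Tau- and 3.05, 3.90, 3.35 and 3.19 in Ch25h-/- Tau+ (log2 fold change -0.07, SE 0.19). The tests of the difference between genotypes passed for none of the 7 genes either (0.0338% of all genes passed). The largest were -0.97 (SE 0.53, adjusted p 1) for Cd200r1, -0.94 (SE 0.30, adjusted p 0.603) for Cd274 and -0.88 (SE 0.26, adjusted p 0.455) for Havcr2 (edgeR), so the tau effect on these genes is not shown to differ between genotypes.

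**Figure D2:**
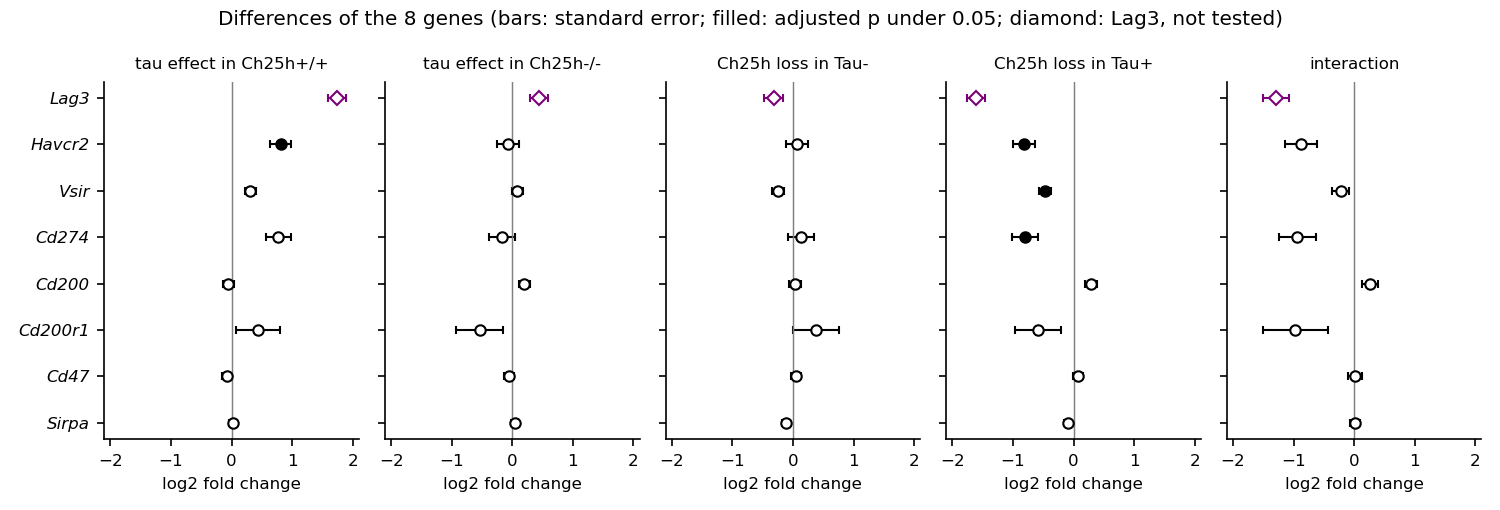
Log2 fold changes (horizontal axis) with standard errors for the 8 genes in the 5 comparisons; filled points passed an adjusted p of 0.05 and the diamond is Lag3, which was not tested. Havcr2 is filled for tau in Ch25h+/+, and Havcr2, Vsir and Cd274 for Ch25h loss in Tau+.

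Ch25h loss in Tau+ mice gave 3 of the 7 genes lower (Havcr2, Vsir and Cd274), where 3.55% of all genes passed. Vsir was at 29.4, 27.1, 28.4 and 31.0 CPM in Ch25h-/- Tau+, all below Ch25h+/+ Tau+ (log2 fold change -0.47, SE 0.09, adjusted p 0.014, edgeR). Havcr2 fell by 0.81 on the log2 scale (SE 0.18, adjusted p 0.0264, edgeR). Cd274, at 2.90, 3.96, 2.22 and 2.12 CPM in Ch25h-/- Tau+, fell by 0.80 (SE 0.21, adjusted p 0.0462, edgeR).

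All 3 calls were lost without Ch25h+/+ Tau+ replicate 4 (adjusted p 0.0932, 0.051 and 0.141 for Havcr2, Vsir and Cd274) or without Ch25h-/- Tau+ replicate 3 (0.0756, 0.0558 and 0.14), and with a covariate for the rRNA-rich class (0.752, 0.807 and 0.976, edgeR). With that covariate the log2 fold changes were -0.95, -0.45 and -0.75, resting on the single Ch25h-/- Tau+ library outside the class. A fit of the 8 libraries compared also ended all 3 calls (0.0859, 0.0964 and 0.118, edgeR). Vsir lost its call with GC-corrected offsets too (-0.37, adjusted p 0.0631, edgeR), Havcr2 and Cd274 without Ch25h-/- Tau+ replicate 4, and Cd274 in 9 of 16 leave-one-out fits. In Ch25h-/- Tau+ replicate 1, the library outside the class, Havcr2 was at 3.05, Vsir at 29.4 and Cd274 at 2.90 CPM, each below the lowest Ch25h+/+ Tau+ library (4.25, 33.8 and 4.13 CPM). Cd274 lies on chromosome 19, 5.11 Mb from Ch25h, and shares 511 exon bases with the antisense gene AC119228.1, and since strand use is not given in the sources used here its counts are uncertain.

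In Tau- mice, Ch25h loss passed for none of the 7 genes, where 1.03% of all genes passed. Vsir was at 26.4, 29.2, 27.2 and 26.5 CPM in Ch25h-/- Tau-, below all Ch25h+/+ Tau- libraries (log2 fold change -0.25, SE 0.10, adjusted p 0.151, edgeR). All 4 of these libraries, and none of the Ch25h+/+ Tau- libraries, were in the rRNA-rich class. The Vsir difference was -0.22 with the class covariate (adjusted p 1), -0.14 with GC-corrected offsets (0.601) and -0.25 in a fit of the 8 libraries compared, where it passed (0.0488, edgeR).

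None of the 4 genes of the pairs that restrain phagocytes passed the edgeR test. Cd200 was at 81.9, 78.5, 62.6 and 67.0 CPM in Ch25h+/+ Tau+ and 82.4, 93.0, 91.7 and 87.5 in Ch25h-/- Tau+, with no overlap (log2 fold change 0.29, SE 0.09, adjusted p 0.0819, edgeR). Cd200 passed with DESeq2 (adjusted p 0.0481) and limma-voom with those weights (0.0118). It did not pass in a fit of the 8 libraries compared (0.29, adjusted p 0.16) or with GC-corrected offsets (0.17, adjusted p 0.36, edgeR). With the class covariate its log2 fold change was 0.18, resting on the Ch25h-/- Tau+ library outside the class. That library was at 82.4 CPM, against 81.9 CPM in the highest Ch25h+/+ Tau+ library. Its receptor gene Cd200r1 had 7 to 22 counts per library (0.391 to 1.24 CPM) and passed in no comparison. Cd47 had group means of 161 to 176 CPM and its receptor gene Sirpa of 503 to 553 CPM, and neither passed in any of the 5 comparisons.

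Per length, in RPKM, which divides CPM by exon length, the median level over the 16 libraries was highest for Sirpa (109), then Cd47 (27.0), Cd200 (24.2), Vsir (6.26), Lag3 (4.18), Havcr2 (1.32), Cd274 (0.889) and Cd200r1 (0.184). The ranges over libraries of Cd47 and Cd200 overlapped, as did those of Vsir and Lag3 and those of Havcr2 and Cd274. This order pools groups in which Lag3 differed: in Ch25h+/+ Tau+ it averaged 14.7 RPKM and Vsir 8.01, and Lag3 was above Vsir in each of these 4 libraries. Sirpa lay above all the others in every library, and Cd200r1 below.

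Some markers of microglia moved with the same groups. The 10 microglia markers had a summed level of 332 to 359 CPM in Tau- and 410 to 524 CPM in Tau+ libraries of Ch25h+/+. In Ch25h-/- the sum was 311 to 359 CPM without and 325 to 391 CPM with tau. Of them, 3 of 10 were higher with tau in Ch25h+/+ and 4 of 10 lower with Ch25h loss in Tau+, where 1.56% and 3.55% of all genes passed. The 6 border macrophage markers summed to 5.79 to 14.1 CPM in Tau- and 11.6 to 20.6 CPM in Tau+ libraries of Ch25h+/+, and to 7.11 to 16.4 and 8.12 to 14.8 CPM in those of Ch25h-/-. None of the 6 passed, with a median log2 fold change of 0.67 for tau in Ch25h+/+ and -0.45 for Ch25h loss in Tau+, against 0.39 and -0.41 for the microglia markers. The part of either cell type in the results was not tested. Set against this sum, Lag3 stood at 2.73 ± 0.403, 6.77 ± 0.732, 2.24 ± 0.342 and 2.84 ± 0.419 CPM per 100 CPM of markers (SD, n = 4), in the group order above, with every Ch25h+/+ Tau+ library above every other library. Havcr2 stood at 0.993, 1.28, 1.05 and 0.947, Cd274 at 0.835, 1.06, 0.937 and 0.779, and Vsir at 9.51, 8.75, 8.20 and 8.18 on the same scale. In Ch25h+/+, Havcr2 libraries then overlapped between Tau- (0.805 to 1.09) and Tau+ (1.04 to 1.49). Those of Vsir also overlapped (9.17 to 9.91 and 8.25 to 9.36), with the lower mean in Tau+. Those of Cd274 did not overlap (0.608 to 0.992 and 1.01 to 1.11).

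Lymphocytes also express Lag3. The 9 T cell markers summed to 2.73 to 11.7 CPM over all libraries and to 4.70 to 9.92 CPM in Ch25h+/+ Tau+. All 9 had counts in each Ch25h+/+ Tau+ library, while 2 to 6 of the 9 were at 0 in every other library. Pdcd1, the PD-1 receptor gene of T cells, had 3 to 25 counts in Ch25h+/+ Tau+ and at most 4 in any other library. The 6 NK cell markers summed to 0 to 0.651 CPM, with 0.308 to 0.651 CPM in Ch25h+/+ Tau+ and at most 0.196 CPM in every other group. The 4 B cell markers summed to 0.121 to 1.42 CPM. The part of these cells in the Lag3 values was not tested.

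**Figure D3:**
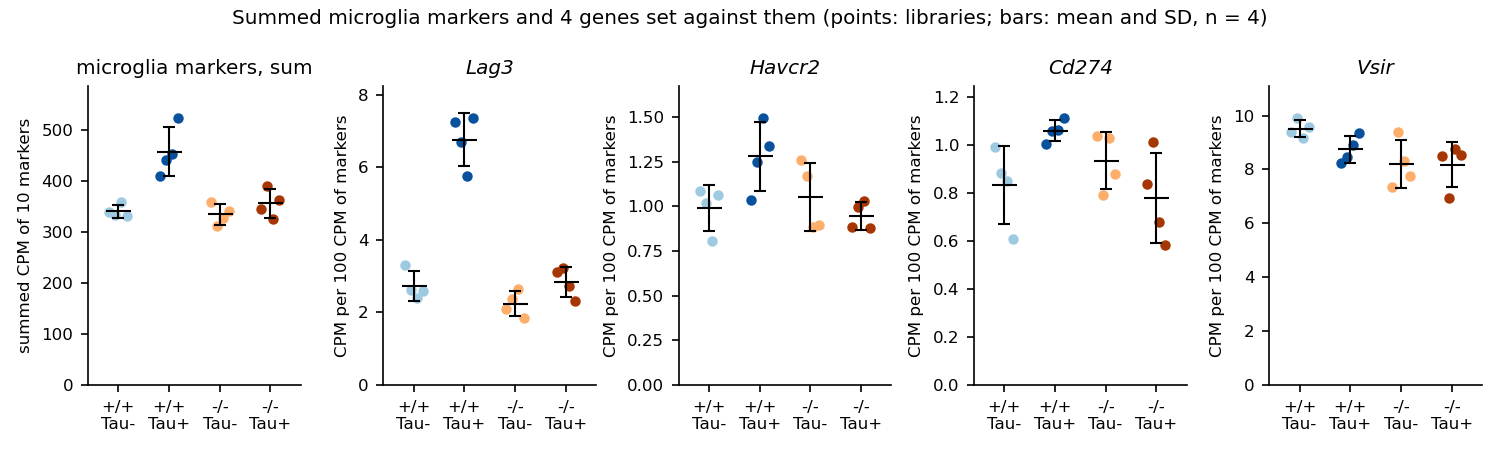
Summed CPM of 10 microglia markers (first panel) and 4 genes as CPM per 100 CPM of those markers (other panels), by group; points are libraries and bars the mean and SD of 4. Lag3 in Ch25h+/+ Tau+ stays at 5.76 to 7.36, above all other libraries.

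The 10 genes with the smallest root mean square difference from Lag3, over centred log2(CPM + 0.5) in the 16 libraries, among 14480 candidates, were AU020206, Tyrobp, C1qa, Trem2, Cyba, Mpeg1, C1qc, Cxcl16, Slc15a3 and C3ar1. The difference ran from 0.222 for AU020206 to 0.337 for C3ar1, against a standard deviation of 0.816 for Lag3 itself. C1qa and C1qc encode complement C1q chains, and Trem2 and Tyrobp a microglial receptor and its adaptor. Trem2 means were 13.3, 30.9, 11.1 and 13.3 CPM in the group order above.

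**Figure D4:**
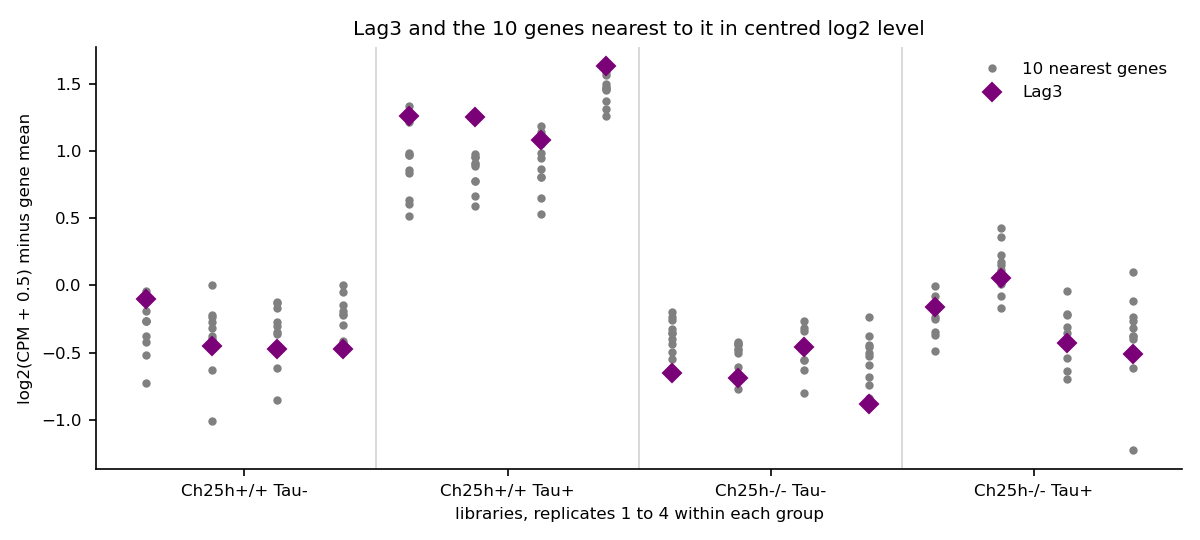
Centred log2(CPM + 0.5) of Lag3 (diamonds) and the 10 nearest genes (grey points) in the 16 libraries, replicates 1 to 4 within each group. All are highest in the 4 Ch25h+/+ Tau+ libraries, as the choice of nearest genes makes them.

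Lag3 lies on chromosome 6 (124904361 to 124911705, minus strand, GRCm38) and overlaps no other annotated gene. Cd200, Cd200r1 and Cd47 lie on chromosome 16 and Sirpa on chromosome 2. Vsir lies inside Cdh23 on the other strand and shares 0 exon bases with it. For the annotated genes beside Lag3, the tau log2 fold change in Ch25h+/+ was -0.11 for Gpr162, -1.04 for Cd4, -0.01 for Ptms and -0.01 for Mlf2, none past the threshold (adjusted p 0.164 to 0.996, edgeR). With Ch25h loss, 3 of these genes were lower in both tau states, where 1.03% of all genes passed in Tau- and 3.55% in Tau+. Gpr162 was lower in Tau- (-0.43, adjusted p 0.0439, edgeR) and at -0.31 in Tau+ (0.0689). Ptms was lower in Tau+ (-0.38, adjusted p 0.0462, edgeR) and at -0.41 in Tau- (0.0551), and Mlf2 was at -0.34 in Tau+ (0.0516) and -0.38 in Tau- (0.0577). Cd4 was at -1.19 in Tau- (adjusted p 0.0726, edgeR) and 0.02 in Tau+ (0.974). In Ch25h-/- Tau+ replicate 1, outside the rRNA-rich class, Gpr162 was at 295, Ptms at 531 and Mlf2 at 455 CPM. The Ch25h+/+ Tau+ libraries ran from 271 to 337, 545 to 746 and 455 to 587 CPM for these genes. The rRNA-rich Ch25h-/- Tau+ libraries ran from 219 to 225, 430 to 453 and 367 to 372 CPM. The part of the class in these values was not tested.

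Of 93 genes that bind, signal with or resemble the checkpoint genes, 67 were tested. With tau in Ch25h+/+, 20 rose and 0 fell (1.56% of all genes passed), and the median was 0.29 on the log2 scale. The 20 became 12 in a fit of the 8 libraries compared, 12 without Ch25h+/+ Tau- replicate 1 or Ch25h+/+ Tau+ replicate 4, and 13 if the library dropped is replicate 2 or 4 of Ch25h+/+ Tau-. Without Ch25h, 0 passed for tau, near the background of 0.0395% of all genes, and the median was 0.04. The number at an unadjusted p below 0.05 over all genes there was 652 in 17736. With Ch25h loss in Tau+, 15 fell and 0 rose (median -0.28, 3.55% of all genes passed), and in Tau- 0 passed, where 1.03% of all genes did. The 15 became 6 in a fit of the 8 libraries compared, 0 with the class covariate, and 4, 5 and 8 without Ch25h+/+ Tau+ replicate 4, Ch25h-/- Tau+ replicate 3 and Ch25h-/- Tau+ replicate 4.

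Most tested genes on the list of Lag3 partners passed. Of 10, 7 rose with tau in Ch25h+/+ and 6 fell with Ch25h loss in Tau+, with medians of 1.97 and -1.80. Of all genes, 1.56% and 3.55% passed in these comparisons. Apart from Lgals3, the 7 that rose were genes of MHC class II or its invariant chain. Cd74, the MHC class II invariant chain, averaged 6.12 ± 1.48 and 91.5 ± 46.1 CPM (SD, n = 4) in Ch25h+/+ Tau- and Tau+, and 7.63 ± 3.13 and 10.9 ± 4.47 in Ch25h-/-. Its tau difference between genotypes was -3.41 (SE 0.58, adjusted p 0.0405, edgeR), the 1 partner gene past that test. No partner gene passed it with the class covariate, with GC-corrected offsets or in 13 of 16 leave-one-out fits, while 6 did with DESeq2. H2-Eb1 and H2-Ab1, MHC class II chains, rose by 2.86 and 3.47 on the log2 scale with tau in Ch25h+/+ (adjusted p 6.52e-05 and 8.08e-05, edgeR).

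Lgals9, which encodes galectin-9, the ligand of Havcr2, rose with tau in Ch25h+/+ by 0.94 (SE 0.16, adjusted p 0.00237, edgeR) and fell with Ch25h loss in Tau+ by 0.57 (adjusted p 0.0497, edgeR). It was the 1 of 5 tested Havcr2 partners that passed in each of these comparisons, where 1.56% and 3.55% of all genes passed. The medians of that list were 0.02 and -0.15. Of 11 genes of the PD-1 axis, 2 rose with tau in Ch25h+/+ (1.56% of all genes passed there), among them Cmtm6, which stabilizes PD-L1, by 0.32 (SE 0.07, adjusted p 0.0303, edgeR). Of 9 genes of the Cd47 and Sirpa axis, 2 rose in that comparison, Ptpn6 (SHP-1, which acts below Sirpa) by 1.04 and Fyb by 1.09. None of 4 genes of the Cd200 axis passed in any comparison, nor did Pdcd1 or Pdcd1lg2 have enough counts to be tested. Among 24 other checkpoint genes, 8 rose with tau in Ch25h+/+, including Cd22 (3.46), Tgfb1 (0.88) and Lair1 (0.75).

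**Figure D5:**
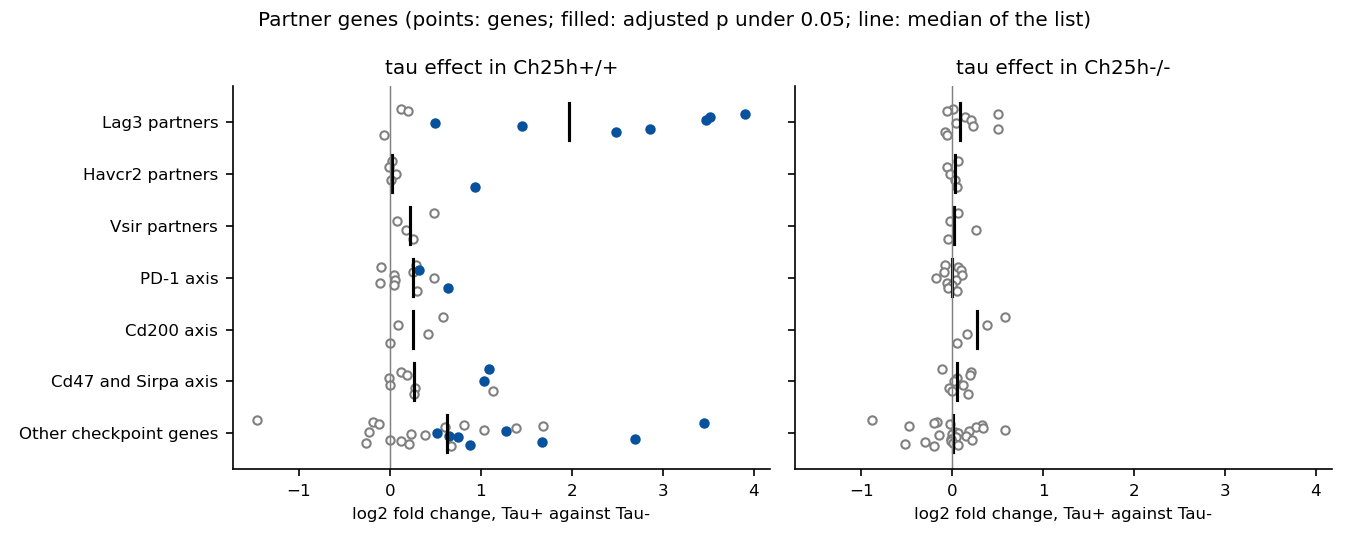
Log2 fold changes (horizontal axis, Tau+ against Tau-) of tested partner genes by list, in Ch25h+/+ (left) and Ch25h-/- (right); filled points passed an adjusted p of 0.05 and lines are list medians. The 10 Lag3 partners have a median of 1.97 on the left and 0.09 on the right.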

How the data were processed

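The authors deposited 1 table of raw counts per gene for 16 libraries, per the file headers, with no normalization; 0 columns were of no sample. Per the submitters' processing notes, reads were aligned with STAR 2.7 to GRCm38 (mm10); the counting program and the use of strand are not given in the sources used here. The labels' protocols name a PureLink column kit and a SMARTER mRNA kit. The table held 105 repeated symbols.

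Genes were filtered with filterByExpr (17736 kept) and compared in edgeR 4.0.16 under R 4.3.3, by two-sided quasi-likelihood F tests after TMM normalization; the 16 libraries shared 1 model with 4 group means. P-values were adjusted over all genes (Benjamini-Hochberg, threshold 0.05). Standard errors are the log2 fold change over the root of F. The model was tested on simulated data. CPM used TMM-scaled library sizes and RPKM the exon length in GENCODE M21. Alternatives were RLE size factors, other count filters, DESeq2 1.42.0, limma-voom with sample quality weights (limma 3.58.1), only the 8 libraries compared, a covariate for the rRNA-rich class (CT010467.1 above 1000 CPM), GC-corrected offsets and leaving out each library. Partner genes were named by up to 3 smallest p per list among those past the threshold, otherwise the 1 with the highest level. One gene that this rule names is not reported here. Genes like Lag3 needed a mean log2 CPM of 1. The members and lists were chosen with earlier results of these data known. Motifs were searched in 250 bases upstream. The 9-letter ISRE form was added after the 10-letter form had matched no member.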

Additional observations from a re-analysis of the deposited data

Results flagged for a closer look

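In Ch25h+/+ Tau-, Lag3 in replicate 1 (11.3 CPM) stood apart from the other 3 libraries (8.59 to 8.75 CPM), by a gap that was 0.939 of the group's range, past Dixon's 95% critical value. It was the 1 group set apart of 32 groups tested, and chance sets apart about 1 in 20. Without replicate 1, the Lag3 mean of this group was 8.65 CPM. That replicate already lay below every Ch25h+/+ Tau+ library, so leaving it out could not change their separation.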

How the results depend on the processing

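The number of the 7 tested genes past the threshold was 1 for tau in Ch25h+/+, and 2 with DESeq2, 3 with limma-voom and sample quality weights, 0 in a fit of only the 8 libraries compared, and 0 to 2 over the fits without 1 library. It was 0 for Ch25h loss in Tau-, and 1 in only the 8 libraries compared. It was 3 for Ch25h loss in Tau+, and 0 in only the 8 libraries compared, 0 with the class covariate, and 0 to 3 without 1 library: 0 if Ch25h+/+ Tau+ replicate 4 or Ch25h-/- Tau+ replicate 3 is dropped, and 1 if the library dropped is Ch25h-/- Tau+ replicate 4. Tau in Ch25h-/- and the interaction gave 0 under every alternative. The causes were not tested. The count for tau in Ch25h+/+ was 2 without Ch25h+/+ Tau+ replicate 1 or Ch25h-/- Tau+ replicate 2.

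Over all genes, the counts ranged from 160 to 498 (277) for tau in Ch25h+/+, 2 to 28 (7) in Ch25h-/-, 0 to 1388 (182) for Ch25h loss in Tau-, 10 to 1883 (629) in Tau+ and 0 to 57 (6) for the interaction, and among partner genes from 12 to 24 (20), 0 to 0, 0 to 3 (0), 0 to 27 (15) and 0 to 6 (1). Lag3 kept its direction in all alternatives, at 1.61 to 1.85 for tau in Ch25h+/+, -1.74 to -1.40 for loss in Tau+ and -1.42 to -1.18 for the difference, but its Ch25h-loss value in Tau- moved from -0.32 to -0.09 with GC-corrected offsets. Among values of single genes, 28 lost a call and 8 gained one. No called value changed sign (0), while 29 values without a call did. Cd200r1 had 7 to 22 counts per library. No paired analysis was possible because replicate numbers were given in accession order and tie no libraries together.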
